A study of Mus musculus with 292 samples.

Results

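Brain RNA of 292 F2 mice was examined for a small group of genes that mark astrocytes. The rule named 8 genes: Acsbg1, Slc1a3, Gja1 and Slc4a4, and beside them Aqp4, Aldh1l1, Slc1a2 and Gfap. Every annotated probe of these genes in the table was taken, which gave 1 probe for each of 7 genes. Gfap had no annotated probe and was not analysed here. The 7 genes stand among 10835 named genes and 23574 probes in all, and no value of the first 4 genes was missing in any mouse.

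The mice descend from inbred C57BL/6J and inbred C3H/HeJ animals, crossed in either direction and then intercrossed, and include females and males, with sex not given per mouse. Chow (4% fat) was their food up to week 8, and for the 12 weeks after that they had a Western diet (42% fat, 0.15% cholesterol). Tissue was collected at an age of 20 weeks, once food had been withheld for 12 h. Each RNA was hybridised against 1 pool made from equal portions of every sample. A value is read here as the log10 ratio of a mouse to that pool, though base and direction are not stated. On this reading 0 means a level equal to the pool. The only labels that set mice apart were the mouse number and a spelling in the description, called form 1 and form 2 here. The 141 mice numbered 213 to 362 were all of form 1, and the 151 mice numbered 51 to 212 held 77 of form 2 and 74 of form 1. The first are called the upper block and the others the lower block. Brain tissue holds many cell types, so fewer astrocytes and less RNA of a gene per astrocyte cannot be told apart. All sets of mice share strain background, diet, age and fast, and the sources give no treatment that differs between them.

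Astrocytes take up the glutamate and potassium that neurons release, move water and bicarbonate across their membranes, supply fuel, and are joined to one another by gap junctions. Gja1 encodes their main connexin, the subunit of the gap junction channel, and Aqp4 encodes the water channel of the endfeet that wrap blood vessels. Slc1a3, also called GLAST, and Slc1a2 encode the glutamate transporters of astrocytes, and Slc4a4 encodes a cotransporter of sodium and bicarbonate that sets pH inside and around the cell. Acsbg1 encodes an enzyme that joins very long fatty acids to coenzyme A, and Aldh1l1 an enzyme of folate metabolism that is used to mark astrocytes throughout the brain. All are counted as astrocyte genes, and the question put to the data was whether they rise and fall together from mouse to mouse.

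They did not rise and fall as 1 set. Gja1 and Aqp4 rose and fell together in both number blocks, as did Slc1a3 and Aqp4, whereas Gja1 ran opposite to Slc4a4. Slc1a3 ran with Slc4a4, weakly in the mice numbered 213 and up and clearly in those numbered 212 and under. Acsbg1 went with none of Slc1a3, Gja1 and Slc4a4 in the same direction in both blocks.

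The promoters of 3 of the genes are shown first, because Slc1a3 went with Slc4a4 and Gja1 went against Slc4a4. Each is the RefSeq stretch of the GRCm38.p6 assembly from 250 bases before to 50 bases after the start of the gene, 5′ to 3′ on the strand of the gene, and RefSeq gives Slc4a4 2 starts. Capitals mark the letters GGGCGG (a GC box) and AGAACA (part of the site that the glucocorticoid receptor is known to bind), on either strand.
Slc1a3 (chr15:8710758-8711057, - strand): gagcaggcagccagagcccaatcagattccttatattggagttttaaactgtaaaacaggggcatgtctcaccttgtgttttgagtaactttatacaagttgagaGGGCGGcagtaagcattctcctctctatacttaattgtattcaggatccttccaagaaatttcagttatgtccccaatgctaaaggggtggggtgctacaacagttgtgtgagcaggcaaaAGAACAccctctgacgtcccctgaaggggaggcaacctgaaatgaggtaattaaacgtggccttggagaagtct
Gja1 (chr10:56377050-56377349, + strand): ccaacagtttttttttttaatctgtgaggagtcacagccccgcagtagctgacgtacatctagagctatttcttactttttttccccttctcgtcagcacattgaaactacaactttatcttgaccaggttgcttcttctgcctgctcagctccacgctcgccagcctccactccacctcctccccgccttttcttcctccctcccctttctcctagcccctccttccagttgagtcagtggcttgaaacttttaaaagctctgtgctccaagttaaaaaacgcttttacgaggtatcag
Slc4a4, first start (chr5:88887010-88887309, + strand): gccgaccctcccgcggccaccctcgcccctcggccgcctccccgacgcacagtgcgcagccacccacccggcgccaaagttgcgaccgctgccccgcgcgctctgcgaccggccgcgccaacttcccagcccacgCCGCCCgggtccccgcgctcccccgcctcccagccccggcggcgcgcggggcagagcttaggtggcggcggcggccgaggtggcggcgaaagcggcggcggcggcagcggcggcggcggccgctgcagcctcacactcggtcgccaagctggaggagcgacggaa
Slc4a4, second start (chr5:89027716-89028015, + strand): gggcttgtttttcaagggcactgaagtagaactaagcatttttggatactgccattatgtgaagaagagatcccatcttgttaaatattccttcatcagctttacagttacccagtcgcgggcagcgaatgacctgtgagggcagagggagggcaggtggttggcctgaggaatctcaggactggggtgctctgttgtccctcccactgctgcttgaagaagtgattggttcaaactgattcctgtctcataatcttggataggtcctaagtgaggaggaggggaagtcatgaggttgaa

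The first Slc4a4 promoter was 80% G and C, against 48.3% for its second start, 47.7% for Gja1 and 45.3% for Slc1a3, with a median of 52.7% over the 32851 promoters in the table. A GC box stood in the Slc1a3 promoter and in the first Slc4a4 promoter, and 35.7% of all promoters hold one. The letters AGAACA stood once in the Slc1a3 promoter and in neither window of Slc4a4 nor in that of Gja1, and 19% of all promoters hold them. Other letter patterns were searched as well. Of these the Slc1a3 window held TTCNNNGAA (N for any base) and TATAAA once each and CCAAT 3 times. The second Slc4a4 window held CCAAT once, and the first Slc4a4 and the Gja1 window held none. Of all promoters 8.3%, 13.6% and 37.4% hold these 3 patterns. Such a match is a description of letters in a window and no evidence of binding. The other members lie on chromosome 9 (Acsbg1), chromosome 18 (Aqp4), chromosome 6 (Aldh1l1) and chromosome 2 (Slc1a2), so no 2 of the 7 genes share a chromosome.

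Facts of the whole table that bear on the members are few. Array medians lay between -0.00726 and 0.0133, and the SD over the probes of an array ran from 0.0437 to 0.199 with a median of 0.0677. Mouse number block went with most of the table: 66.7% of 23549 probes differed between the blocks by limma at an adjusted p under 0.05. Spelling went with few, 1.07% of probes. The Y-linked gene Eif2s3y lay below -0.5 in 65 of the 141 mice numbered 213 and up, in 1 of the 77 mice of form 2 and in 73 of the 74 mice of form 1 numbered 212 and under. The spelling therefore ran, among mice numbered 212 and under, with the level of a Y-linked gene. What separates the number blocks is not given in the sources used here, so number block and anything in which mice or arrays of the blocks differ cannot be told apart. Relations between genes were for this reason computed within each block.

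Against the pool no member stood far away. None of the 7 genes reached a mean of 1.2-fold either way with an adjusted p under 0.05 by limma, a rule that 0.586% of all probes met. With no fold asked, Acsbg1, Slc1a3, Gja1 and Slc4a4 passed, as did 68.4% of all probes. Over all mice the means ran from -0.0565 ± 0.0944 for Slc1a3, or 0.878-fold, to 0.00573 ± 0.043 for Gja1, or 1.01-fold (SD, n = 292). The spread between mice differed more than the means. Slc1a3 and Slc4a4 had an SD larger than 90.9% and 91.1% of probes, whereas the SDs of Acsbg1 and Gja1, 0.0433 and 0.043, were larger than only 38.3% and 37.7%.

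Gja1, the connexin, varied little between mice. Its log10 ratio ran from -0.136 through a median of 0.0123 to 0.094 in the 141 mice numbered 213 and up, from -0.148 through 0.000629 to 0.0999 in the mice of form 2, and from -0.0977 through -0.00248 to 0.098 in the mice of form 1 numbered 212 and under. The sets overlapped over nearly all of their range. The block mean was 0.0129 ± 0.0366 in the mice numbered 213 and up and -0.001 ± 0.0473 in those numbered 212 and under (SD, n = 141 and 151), a difference of 0.0139 or 1.03-fold that limma called with an adjusted p of 0.00926. The difference was smaller than the spread between mice, and against the 77 mice of form 2 alone it was 0.012 with an adjusted p of 0.0734, where 59.8% of probes passed.

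Aqp4, the water channel, had block means of 0.00818 ± 0.0625 in the mice numbered 213 and up and -0.0116 ± 0.0923 in those numbered 212 and under. The difference of 0.0197 missed the threshold in limma (adjusted p = 0.0504). Against form 2 alone it was 0.0351 and was called (adjusted p = 0.003), and against form 1 alone it was 0.00374 (adjusted p = 0.765), where 62.3% of probes passed.

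Slc1a3, the glutamate transporter, differed most of the 7 genes between the blocks. Its log10 ratio ran from -0.267 through a median of -0.119 to 0.0906 in the mice numbered 213 and up, from -0.254 through -0.01 to 0.184 in form 2, and from -0.211 through 0.0247 to 0.173 in form 1 of the lower block. Most mice of the upper block lay below the pool, 132 of 141, against 44 of 77 and 28 of 74 in the other sets, although the ranges overlapped. The block mean was -0.112 ± 0.0677 in mice numbered 213 and up and -0.00431 ± 0.0857 in those numbered 212 and under, a ratio of 0.78-fold (difference -0.108 ± 0.00904 SE, limma adjusted p = 5.12e-26). The difference was larger than the SD of either block. It was also larger than that of 97.2% of probes. The mean of Slc1a2, the other glutamate transporter, did not differ detectably (difference -0.0152 ± 0.0271 SE, limma adjusted p = 0.636). A few extreme mice, given next, widen that SE. The median of Slc1a2 was -0.0539 in the upper block and 0.00991 in the lower block. Below the pool lay 96 of 141 and 67 of 151 mice. A difference without the extreme mice was not tested.

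The Slc1a2 probe had a few extreme mice. In the block from 213 on, 4 mice lay beyond 0.5 from 0, 3 of them above, with highest values of 2, the limit of the table, and 1.91. In the lower block 1 mouse lay at -1.18. Its SD was 0.304 in the upper block and 0.137 in the lower block, and 0.127 and 0.0967 without those mice.

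Slc4a4, the bicarbonate cotransporter, differed between the blocks in both mean and spread. Its log10 ratio ran from -0.225 through a median of -0.098 to 0.247 in the mice numbered 213 and up, from -0.222 through -0.00798 to 0.18 in form 2, and from -0.18 through -0.0000942 to 0.237 in form 1 of the lower block. In the upper block 137 mice formed a narrow band that ended at 0.00101, and 4 mice stood apart at 0.104 and above. A mixture of normal curves found a single level in the lower block. The mean was -0.0942 ± 0.0574 in mice numbered 213 and up and -0.00443 ± 0.102 in those numbered 212 and under, a ratio of 0.813-fold (difference -0.0898 ± 0.00977 SE, limma adjusted p = 4.89e-17). The difference was larger than the SD of the upper block and smaller than that of the lower block. The SD of the upper block was 0.56 times that of the lower block, a ratio under which only 5.55% of probes lay, with a median over all probes of 0.899. Over all 292 mice a mixture of normal curves placed 221 mice at a lower and 71 at a higher level, and the higher level held 4 mice of the upper block, 35 of form 2 and 32 of form 1, so no correlation of Slc4a4 over all mice is given.

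Acsbg1, the fatty acid enzyme, was lower in the upper block by a small and regular step. Its log10 ratio ran from -0.14 through a median of -0.0451 to 0.141 in the mice numbered 213 and up, from -0.12 through -0.000287 to 0.0851 in form 2, and from -0.0833 through 0.00596 to 0.0674 in form 1 of the lower block. The mean was -0.0445 ± 0.0345 in mice numbered 213 and up and 0.0000231 ± 0.0395 in those numbered 212 and under, a ratio of 0.903-fold (difference -0.0445 ± 0.00436 SE, limma adjusted p = 3.47e-20). The step was larger than the SD of either block. Aldh1l1 was lower as well, at 0.958-fold (difference -0.0186, adjusted p = 3.01e-05), and in the upper block it fell into levels of 131 and 10 mice.

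Across the blocks, then, 4 of the 7 genes were lower in the mice numbered 213 and up, 1 was higher and 2 did not pass, where 36.1% of all probes were lower and 30.5% higher. Slc1a2 is 1 of these 2, and its extreme mice widen the SE of its difference. With at least 1.2-fold also asked, 2 of the 7 were left, Slc1a3 and Slc4a4, where 6.74% of all probes met both conditions. Between form 2 and form 1 of the lower block none of the 7 genes differed, with adjusted p from 0.603 to 0.998.

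**Figure D1:**
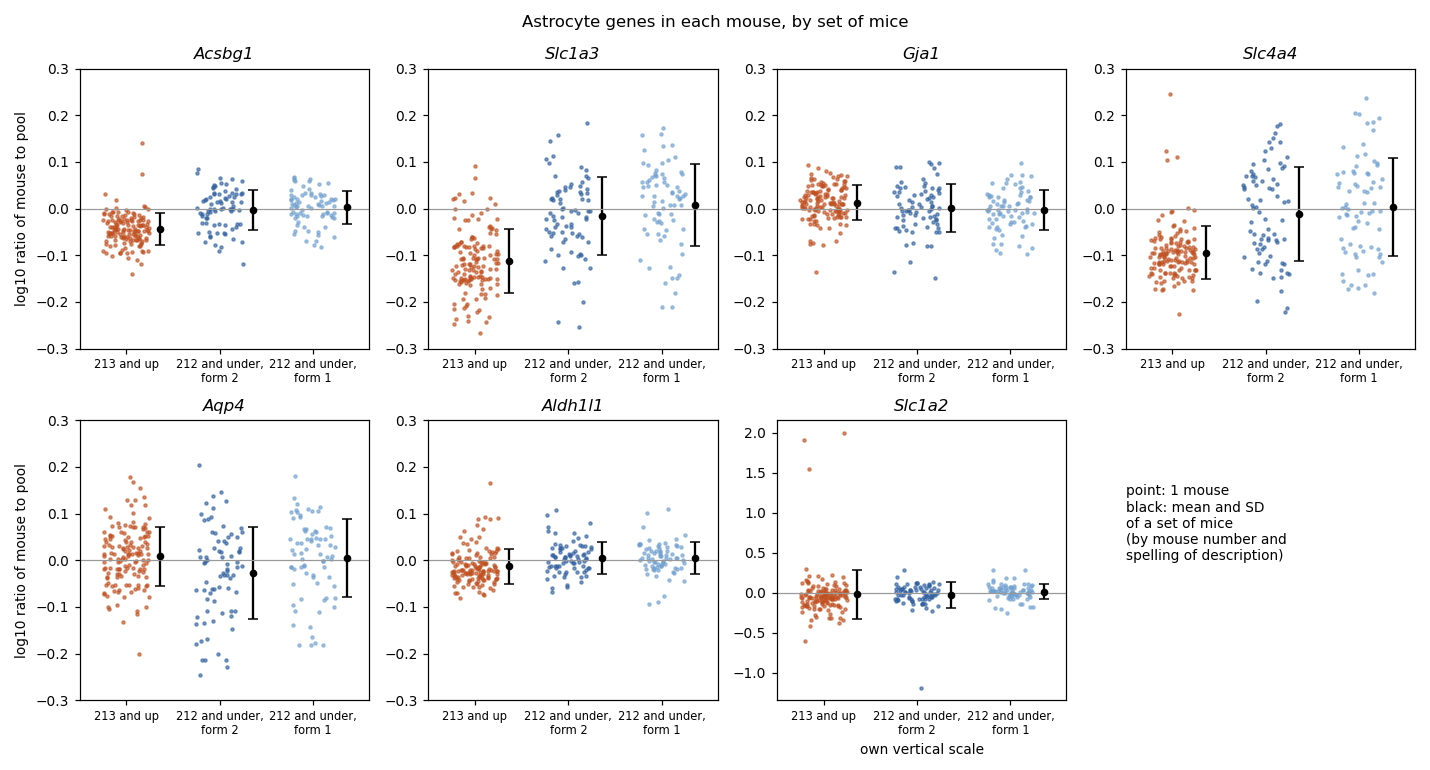
Log10 ratio of mouse to pool for each of the 7 genes, by set of mice (213 and up, 212 and under of form 2, 212 and under of form 1). Points are mice and the black marks are mean and SD. Slc1a3, Slc4a4 and Acsbg1 sit lower in the mice numbered 213 and up, and Slc4a4 forms a narrow band there with 4 mice at 0.104 and above. Slc1a2 has its own scale.

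For the pair relations, every probe was regressed on 1 member within a block with limma, and p-values were adjusted over all 23548 other probes. A pair of genes was said to go together, or in opposite directions, at an adjusted p under 0.05. The yardstick is wide, because much of the table moves with any 1 gene. In the upper block 18% of probes went with Acsbg1 in the same direction and 19.4% in the opposite one, and the shares were 20.6% and 27.4% for Slc1a3, 15.7% and 21.6% for Gja1, and 18.5% and 12.9% for Slc4a4. In the lower block they were 21.1% and 21.3% for Acsbg1, 11.8% and 16.2% for Slc1a3, 28.1% and 38% for Gja1, and 20.7% and 18.6% for Slc4a4. Permutation p-values below come from 100000 permutations, and 1e-05 is the smallest they can give.

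Of the 15 pairs among the 6 genes other than Aldh1l1, 4 went together and 2 in opposite directions in the mice numbered 213 and up, and 5 went together and 1 in opposite directions in the mice numbered 212 and under. The remaining 9 pairs in each block did not pass. By this rule only 3 pairs went together in both blocks and 1 ran opposite in both, and 1 pair was called in both with opposite signs. The rule uses values and not ranks, so the few extreme mice of Slc1a2 weigh on its pairs.

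**Figure D2:**
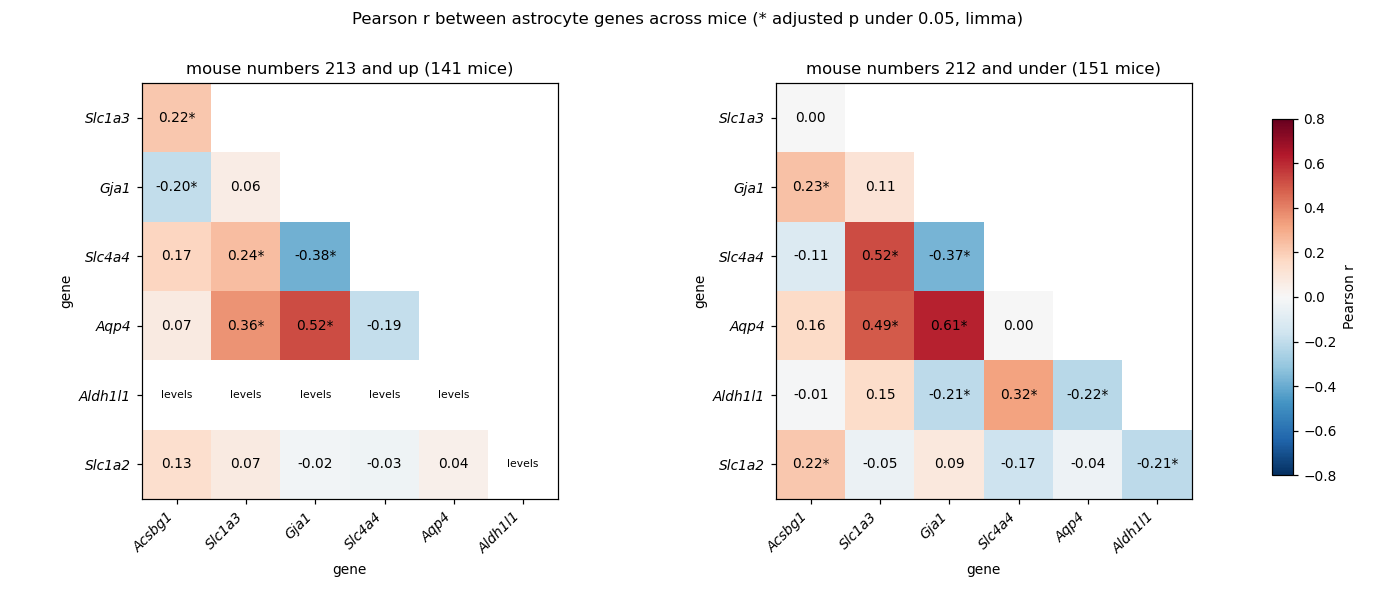
Pearson r for each pair of the 7 genes, left for the 141 mice numbered 213 and up and right for the 151 mice numbered 212 and under. Stars mark an adjusted p under 0.05, and "levels" stands where Aldh1l1 falls into separate levels, so that no single r applies. The block of Gja1 with Aqp4 and the block of Gja1 with Slc4a4 have opposite colours in both panels.

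Gja1 and Aqp4, the connexin and the water channel, were the closest pair. Their r was 0.524 in the mice numbered 213 and up (rho 0.449, permutation p = 1e-05 for each, adjusted p = 1.14e-09) and 0.613 in those numbered 212 and under (rho 0.604, permutation p = 1e-05 for each, adjusted p = 6.61e-16). Within the lower block it was 0.606 in form 2 and 0.664 in form 1. Without the 2 mice farthest from the median of Gja1, r was 0.464 in the upper block and 0.596 in the lower block. By mean r over the blocks Aqp4 ranked 88 from the top among the 10834 other named genes with Gja1.

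Slc1a3 and Aqp4 also went together in both blocks, where 15.4% of probes went with Aqp4 and 18.1% against it in the upper block, and 25.8% and 36.1% in the lower block. The r was 0.356 in mice numbered 213 and up (rho 0.299, permutation p = 1e-05 and 0.00027, adjusted p = 8.16e-05) and 0.492 in those numbered 212 and under (rho 0.436, permutation p = 1e-05 for each, adjusted p = 6.32e-09), with 0.443 in form 2 and 0.527 in form 1. Although both Gja1 and Slc1a3 followed Aqp4, Slc1a3 and Gja1 did not pass with each other: their r was 0.0599 (rho 0.0323, permutation p = 0.482 and 0.703, adjusted p = 0.58) in the upper block and 0.108 (rho 0.0834, permutation p = 0.188 and 0.308, adjusted p = 0.322) in the lower block.

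Slc1a3 and Slc4a4, the glutamate and the bicarbonate transporter, had r 0.244 in the mice numbered 213 and up (permutation p = 0.00335, adjusted p = 0.00926), while rho was 0.141 (permutation p = 0.094). In the mice numbered 212 and under they had r 0.519 (rho 0.529, permutation p = 1e-05 for each, adjusted p = 4.35e-10), at 0.464 in form 2 and 0.563 in form 1. The relation of the upper block rested on few mice: r was 0.151 without the 2 mice farthest in Slc1a3 and 0.159 without the 4 mice high in Slc4a4, and neither passed. The difference of the relation between the blocks, -0.274, just missed the threshold (limma interaction, adjusted p = 0.0554). By mean r Slc1a3 ranked 100 from the top of 10834 genes with Slc4a4.

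Gja1 and Slc4a4 ran in opposite directions at about the same strength in both blocks. Their r was -0.382 in the mice numbered 213 and up (rho -0.35, permutation p = 4e-05 and 5e-05, adjusted p = 3.15e-05) and -0.373 in those numbered 212 and under (rho -0.384, permutation p = 1e-05 for each, adjusted p = 5.86e-06). Within the lower block r was -0.472 in form 2 and -0.257 in form 1. Without the 2 mice farthest in Gja1 it was -0.377 in the upper and -0.391 in the lower block, and without the 4 mice high in Slc4a4 it was -0.327 in the upper block. Gja1 ranked 115 from the bottom of 10834 genes with Slc4a4. The first principal component of the lower block, which held 18.3% of its variance, had r 0.706 with Gja1 and -0.397 with Slc4a4. With this component as a covariate the partial r of the pair in that block was -0.143 (adjusted p = 0.157).

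Acsbg1 and Gja1 changed sign between the blocks. The r was -0.199 in mice numbered 213 and up (rho -0.255, permutation p = 0.0184 and 0.00223, adjusted p = 0.0483) and 0.234 in mice numbered 212 and under (rho 0.176, permutation p = 0.00402 and 0.0309, adjusted p = 0.0118). Form by form, the lower block gave 0.326 in form 2 and 0.109 in form 1. With all arrays kept, this was the only one of the 6 pairs of the first 4 genes whose relation differed between the blocks by limma (difference -0.433, adjusted p = 0.00304), where 17.3% of all probes differed in their relation with Acsbg1. Without the 30 arrays of widest spread it was still called (-0.392, adjusted p = 0.0134), and so were Acsbg1 with Slc1a3 (0.338), Acsbg1 with Slc4a4 (0.441) and Slc1a3 with Slc4a4 (-0.291). Each block's own call was fragile. In the upper block r was -0.178 (adjusted p = 0.0856) after the arrays were scaled to equal spread, and in the lower block it was -0.0802 (adjusted p = 0.521) with the first component as a covariate and 0.177 (adjusted p = 0.0738) without the 2 mice farthest in Acsbg1.

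Acsbg1 and Slc1a3 had a relation over all mice that was weaker within the blocks. Over all 292 mice r was 0.354, and with each of the 3 sets of mice centred on its own mean it was 0.0786. Within the blocks it was 0.216 in mice numbered 213 and up (rho 0.289, permutation p = 0.0102 and 0.0005, adjusted p = 0.0295) and -0.00135 in mice numbered 212 and under (rho 0.00712, permutation p = 0.987 and 0.932, adjusted p = 0.991). The relation over all mice therefore did not hold within the lower block. Acsbg1 and Slc4a4 did not pass in either block, at 0.172 in the upper block (rho 0.191, permutation p = 0.0446 and 0.0233, adjusted p = 0.0926) and -0.109 in the lower block (rho -0.128, permutation p = 0.185 and 0.117, adjusted p = 0.281). Without the 4 mice high in Slc4a4 the r of the upper block was 0.27 (adjusted p = 0.00626).

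Aldh1l1 and Slc1a2 added no pattern common to all members. Of all probes in the lower block, 28.2% went with Aldh1l1 and 23.2% against it, and 20.3% with Slc1a2 and 22.5% against it. In the upper block, within the level of 131 mice and the level of 10 mice, the r of Aldh1l1 was 0.215 and 0.155 with Slc4a4 and -0.219 and -0.383 with Gja1. In the lower block Aldh1l1 went with Slc4a4 (r 0.32, rho 0.38, permutation p = 3e-05 and 1e-05, adjusted p = 0.000491) and against Gja1 (r -0.208, rho -0.26, permutation p = 0.0107 and 0.00145, adjusted p = 0.0177) and Aqp4 (r -0.224, rho -0.205, permutation p = 0.0058 and 0.0115, adjusted p = 0.0112). It was also called against Slc1a2 there (r -0.208, rho -0.101, permutation p = 0.0148 and 0.217, adjusted p = 0.0216), and without the 1 extreme mouse that r was -0.116. The r of Slc1a2 in the upper block was 0.134 with Acsbg1 over all mice and 0.256 without the 4 extreme mice, and 0.0736 and 0.26 with Slc1a3. Over all mice neither passed in limma (adjusted p = 0.2 and 0.484). On ranks rho was 0.275 with Acsbg1 and 0.276 with Slc1a3 (permutation p = 0.00101 and 0.00091). In the lower block Slc1a2 went with Acsbg1 (r 0.217, rho 0.265, permutation p = 0.00676 and 0.00105, adjusted p = 0.0194). The rho of Slc1a2 with Acsbg1 was thus positive in both blocks. With Slc1a3 rho was -0.11 in the lower block (permutation p = 0.18).

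**Figure D3:**
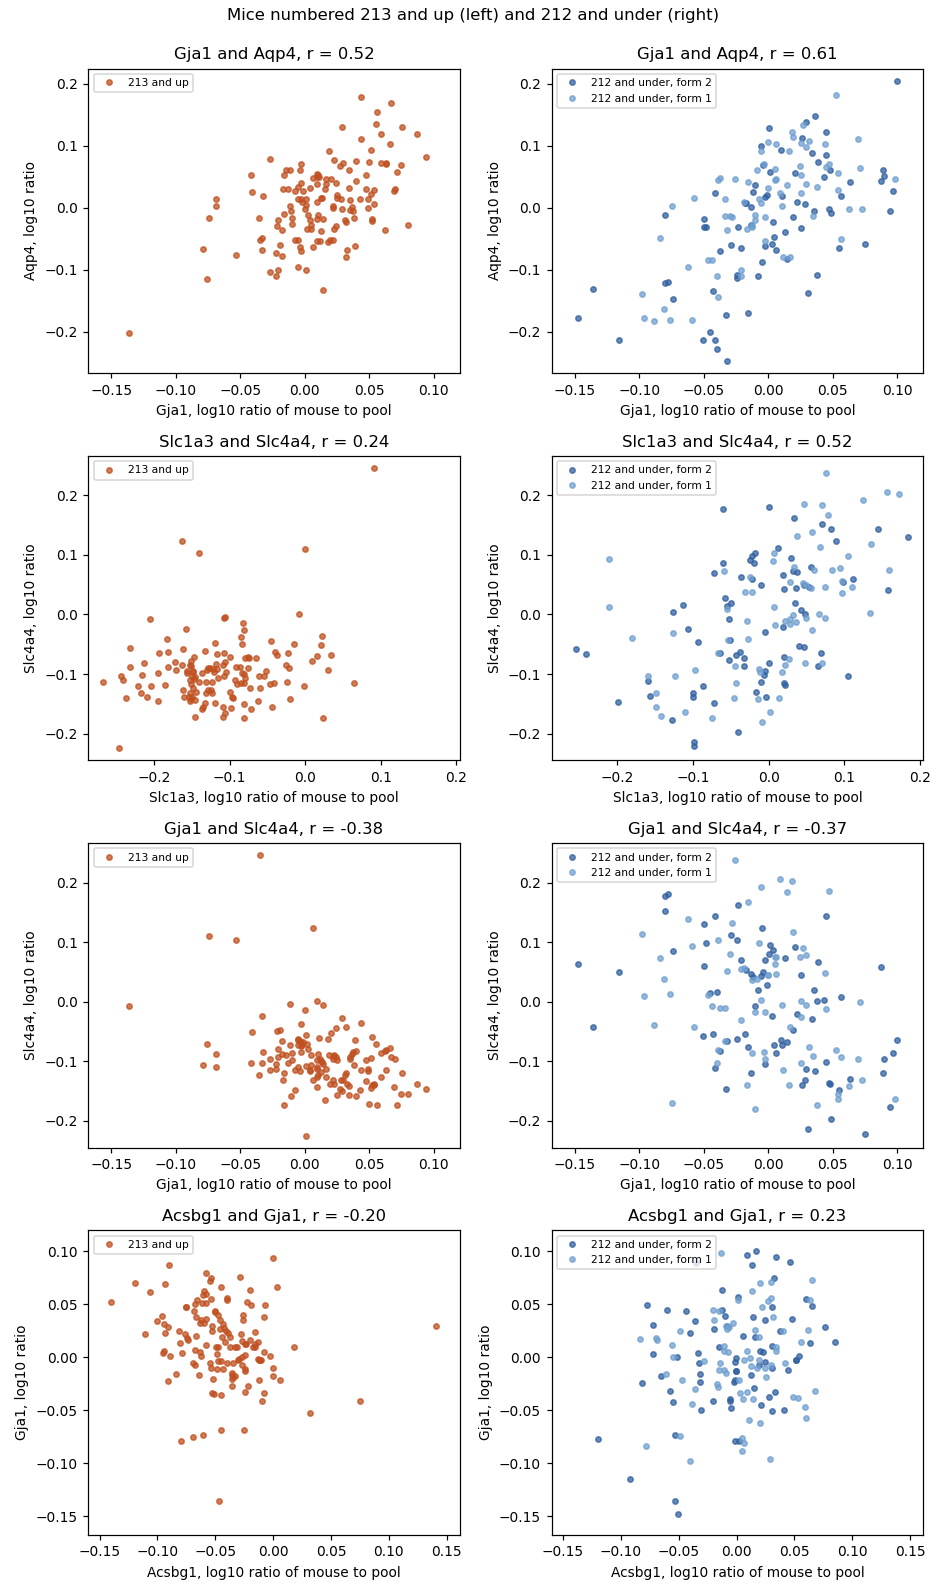
Each point is a mouse, with log10 ratios of mouse to pool on both axes, for 4 pairs of genes (rows) in mice numbered 213 and up (left) and 212 and under (right, form 2 dark and form 1 light). Gja1 and Aqp4 rise together, Gja1 and Slc4a4 run opposite, Slc1a3 and Slc4a4 rise together mainly in the right panel, and Acsbg1 and Gja1 tilt in opposite ways.

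Other astrocyte genes were called more often than probes at large with Acsbg1 in its own direction, and for the other members the shares in the lower block lay near those of all probes. Of 39 further astrocyte genes listed, 27 were measured. Counts over this and the other lists include a few genes that fall into levels in a block, such as Mlc1 here, for which no r is printed. Acsbg1 had 13 with it and 1 against it in the upper block, or 48.1% and 3.7% of the list, where 18% and 19.4% of all probes were called. It had 12 and 1 in the lower block, or 44.4% and 3.7%, against 21.1% and 21.3% of all probes. The median r with Acsbg1 over the list was 0.181 in the upper and 0.12 in the lower block, against medians of -0.0254 and 0.00272 over all probes. Some lists of other markers had such an excess in at least 1 block. With Acsbg1 went 7 of 15 endothelial and mural genes (46.7%) and 5 of 7 choroid and ependymal genes (71.4%) in the upper block. In the lower block 5 (33.3%) and 1 (14.3%) did. Of 8 cerebellum genes 1 went with it in the upper block and 6 (75%) in the lower block. None of 5 pituitary and none of 5 erythrocyte genes did in either block. The excess with Acsbg1 was therefore not confined to astrocyte genes.

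Slc1a3 had 10 with it and 4 against it in the upper block (37% and 14.8%, against 20.6% and 27.4% of all probes) and 4 and 4 in the lower block (14.8% each, against 11.8% and 16.2%). Gja1 had 6 and 9 in the upper block (22.2% and 33.3%, against 15.7% and 21.6%) and 9 and 10 in the lower block (33.3% and 37%, against 28.1% and 38%). Slc4a4 had 8 and 3 in the upper block (29.6% and 11.1%, against 18.5% and 12.9%) and 7 and 6 in the lower block (25.9% and 22.2%, against 20.7% and 18.6%). The differences between members were not tested.

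The astrocyte genes closest to each member were different ones. With Acsbg1 went Clu, a secreted chaperone also called apolipoprotein J, at r 0.506 and 0.646 in the upper and the lower block, Pla2g7, a secreted phospholipase, at 0.621 and 0.453, and Ttyh1, a membrane protein, at 0.558 and 0.435. With Gja1 went Gjb6, the second connexin of astrocytes, at 0.463 and 0.339, and Dio2, which activates thyroid hormone, at 0.366 and 0.323. The receptor gene Fgfr3 ran against Gja1 at -0.29 and -0.668, and with Slc4a4 at 0.348 and 0.392. With Slc1a3 went Slc7a10, a transporter of small neutral amino acids, at 0.356 and 0.347. Against Slc1a3 ran Lcat, which esterifies cholesterol, at -0.341 and -0.264. Nfia and Nfib, transcription factors needed for astrocyte formation, ran against Slc4a4 at -0.287 and -0.459 for Nfia and at -0.24 and -0.242 for Nfib. All of these passed in both blocks.

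Clu and Ndrg2 were called in both blocks with opposite signs, and were picked out after their values were seen. With Gja1 the r of Clu was -0.285 in the upper block and 0.51 in the lower block, and that of Ndrg2 was -0.469 and 0.207. With Slc4a4 the r of Clu was 0.286 and -0.437, and that of Ndrg2 was 0.307 and -0.402. These 4 relations were picked because the blocks had opposite calls, so a test of the difference on the same mice gives no separate support. By limma each differed between the blocks, with adjusted p from 7.71e-10 to 3.35e-07. Of all probes, 29.1% differed in their relation with Gja1 and 18% in that with Slc4a4. With Acsbg1 both genes went in the same direction in both blocks.

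**Figure D4:**
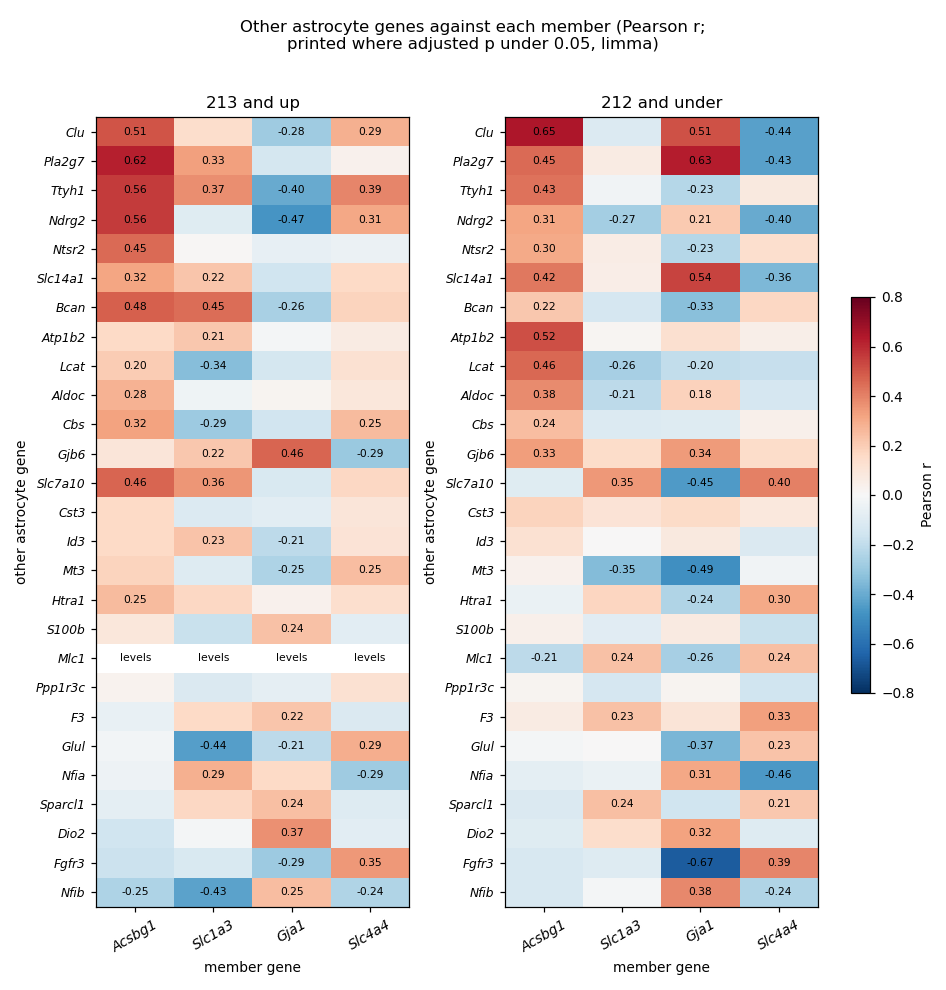
Pearson r of 27 other astrocyte genes (rows) with Acsbg1, Slc1a3, Gja1 and Slc4a4 (columns), left for mice numbered 213 and up and right for those numbered 212 and under. Values are printed where the adjusted p is under 0.05, and "levels" stands where Mlc1 falls into separate levels. Printed values in the Acsbg1 column are positive but for 1 gene in each panel, and the Gja1 and Slc4a4 columns often have opposite colours in 1 row.

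Genes of the same family or pathway as a member were counted in the same way. Of 10 measured connexin, pannexin and junction scaffold genes, 4 went with Gja1 and 2 against it in the upper block (40% and 20%, against 15.7% and 21.6% of all probes), and 6 and 2 in the lower block (60% and 20%, against 28.1% and 38%). Gjb1, a connexin of oligodendrocytes, ran against Gja1 at -0.273 and -0.397. Of 11 bicarbonate transporter and carbonic anhydrase genes, 4 went with Slc4a4 and none against it in the upper block (36.4%, against 18.5% of all probes), and none went with it and 4 against it in the lower block (36.4%, against 18.6%). The anion exchanger gene Slc4a3 had r 0.346 with Slc4a4 in the upper block and 0.15 in the lower block. Of 11 genes of glutamate transport and metabolism, 3 went with Slc1a3 and 2 against it in the upper block (27.3% and 18.2%, against 20.6% and 27.4% of all probes), and 1 and 3 in the lower block (9.09% and 27.3%, against 11.8% and 16.2%). The metabotropic receptor genes Grm5 and Grm3 took opposite sides, Grm5 at 0.345 and 0.322 and Grm3 at -0.417 and -0.252.

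Of 13 genes of fatty acid activation and elongation, 3 went with Acsbg1 and 1 against it in the upper block (23.1% and 7.69%, against 18% and 19.4% of all probes), and 6 and 2 in the lower block (46.2% and 15.4%, against 21.1% and 21.3%). Slc27a2, which takes up and activates long fatty acids, had r 0.357 and 0.424 with Acsbg1, and Acsl6, an acyl-CoA synthetase, 0.244 and 0.344. Fatty acid genes also went with other members. Acsl4, an acyl-CoA synthetase of arachidonic acid, had r 0.524 and 0.544 with Slc1a3, and Abcd3, a peroxisomal transporter, 0.537 and 0.553 with Gja1. Of 18 reactive astrocyte genes, 6 went with Acsbg1 and 2 against it in the upper block (33.3% and 11.1%) and 7 and 1 in the lower block (38.9% and 5.56%). For Gja1 the counts were 3 and 5 in the upper block (16.7% and 27.8%, against 15.7% and 21.6% of all probes). In the lower block they were 7 and 3 (38.9% and 16.7%, against 28.1% and 38%). For Slc1a3 they were 4 and 4 (22.2% each, against 20.6% and 27.4%), then 4 and 3 (22.2% and 16.7%, against 11.8% and 16.2%). For Slc4a4 they were 2 and 1 (11.1% and 5.56%, against 18.5% and 12.9%), then 1 and 6 (5.56% and 33.3%, against 20.7% and 18.6%). Several of these shares lay near those of all probes.

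Markers of other brain cells were called with the members too, in several lists at about the share of all probes. Of 13 neuron genes, 5 went with Gja1 and 3 against it in the upper block (38.5% and 23.1%, against 15.7% and 21.6% of all probes), and 6 and 4 in the lower block (46.2% and 30.8%, against 28.1% and 38%). Of 15 genes of endothelial and mural cells, 3 and 2 did so in the upper block (20% and 13.3%) and 9 and 1 in the lower block (60% and 6.67%). With Slc4a4 went 1 of these genes in the lower block, and 8 went against it (6.67% and 53.3%, against 20.7% and 18.6%). Of 15 oligodendrocyte genes, 3 went with Acsbg1 and 3 against it in the upper block (20% each, against 18% and 19.4%), and 6 and 1 in the lower block (40% and 6.67%, against 21.1% and 21.3%). Of 11 microglia genes, 1 went with Gja1 and 2 against it in the upper block (9.09% and 18.2%), and 2 and 6 in the lower block (18.2% and 54.5%). Single relations were strong, with r -0.615 for Slc32a1 and 0.612 for Syt1, both neuron genes, with Gja1 in the lower block. Neither of the measured Y-linked genes went with or against Acsbg1, Slc1a3, Gja1 or Slc4a4 in either block. Against Aqp4 both were called in the upper block, where 18.1% of all probes were, and neither in the lower block. The part of cell composition in these relations was not tested.

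Genes known to be switched on by glucocorticoid hormones were called mostly with Slc4a4 and Slc1a3 and against Gja1 in the lower block. Of 10 such genes, all measured, none went with or against Slc4a4 or Gja1 in the mice numbered 213 and up, 1 went with Slc1a3 and 3 against it, and 1 went with Acsbg1 and 2 against it. In the mice numbered 212 and under 8 went with Slc4a4 and none against it, 7 went with Slc1a3 and 1 against it, none went with Gja1 and 7 against it, and none went with Acsbg1 and 1 against it. Of all probes there, 20.7% went with Slc4a4, 11.8% with Slc1a3 and 38% against Gja1. Aldh1l1, Aqp4 and Slc1a2 had such calls as well. In the lower block 7 of the 10 went with Aldh1l1 (28.2% of all probes), 6 ran against Aqp4 (36.1%) and 4 against Slc1a2 (22.5%). In the upper block 5 ran against Aqp4 (18.1% of all probes), and none was called with or against Slc1a2. Cdkn1a, an inhibitor of the cell cycle, had r with Slc4a4 of 0.0491 in the upper block and 0.555 in the lower block, at 0.566 in form 2 and 0.563 in form 1. Tsc22d3, a suppressor of inflammation, had 0.0138 and 0.437. Fkbp5, a cochaperone of the glucocorticoid receptor, had -0.101 and 0.435, and the kinase gene Map3k6 -0.0027 and 0.463.

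With Gja1 the signs were turned in the lower block: the r of Cdkn1a was 0.0565 in the upper block and -0.375 in the lower block, and that of Map3k6 was -0.108 and -0.447. The relation differed between the blocks for 7 of the 10 genes with Slc4a4, where 18% of all probes differed, for 5 with Slc1a3 (26.9% of probes), for 4 with Gja1 (29.1%) and for 1 with Acsbg1. The spread of these genes was also smaller in the upper block for 9 of the 10, with an SD ratio from 0.626 for Per1 to 0.922 for Pdk4, while that of Sgk1 was 1.05. The median ratio over all probes was 0.899. With the first component of the lower block as a covariate, 7 of the 10 still went with Slc4a4 and 8 with Slc1a3. Of all probes 12% and 16.1% did so under that covariate. None of the 10 then ran against Gja1, where 20% of all probes did. The 2 that went with Gja1 were near the share of all probes, 17.7%. No hormone level or time of death was used here.

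**Figure D5:**
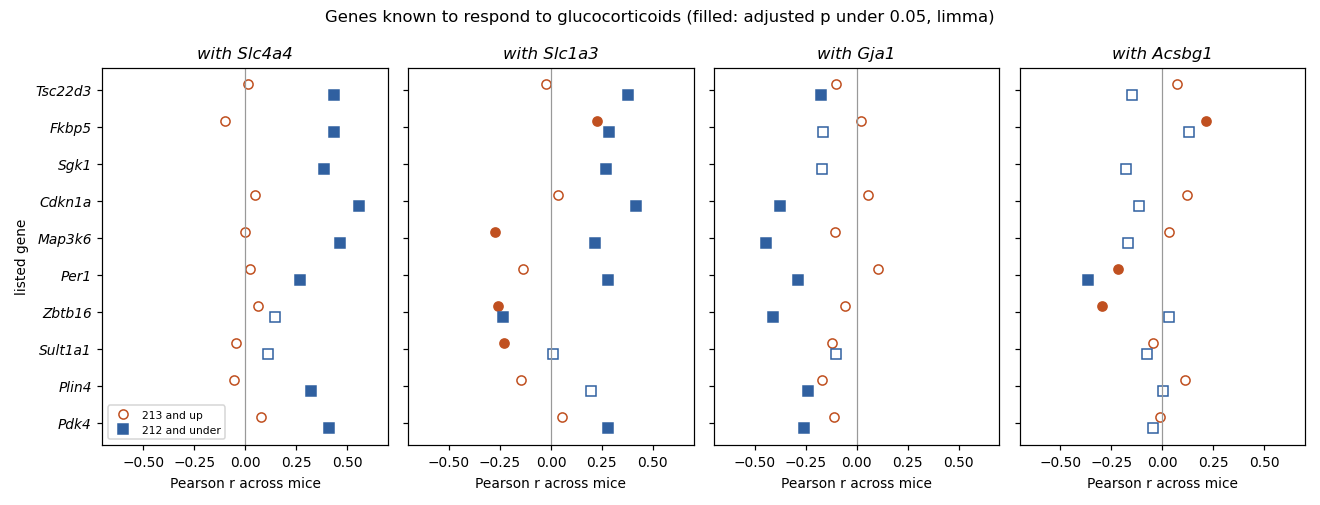
Pearson r of 10 genes known to respond to glucocorticoids with 4 members, circles for mice numbered 213 and up and squares for those numbered 212 and under, filled where the adjusted p is under 0.05. Squares lie to the right for Slc4a4 and to the left for Gja1. Sgk1 has no circle because it falls into levels in that block.

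Over the whole genome the genes closest to each member, by mean r over the blocks, were again different. Acsbg1 was closest to Alas1, the first enzyme of heme synthesis, at 0.744 in the upper and 0.681 in the lower block, then to the helicase gene Ddx41 at 0.719 and 0.699, Mrpl10, of the mitochondrial ribosome, at 0.728 and 0.677, and Ogfr at 0.696 and 0.689. Farthest from it were Zfp758, at -0.663 and -0.4, and Jrk, at -0.457 and -0.488. Slc1a3 was closest to Ednrb, the endothelin receptor of astrocytes, at 0.819 in the upper block. In the lower block Ednrb fell into levels of 35 and 116 mice, and r with Slc1a3 was 0.637 and 0.6 within them. Next came Bmpr1b, a receptor of bone morphogenetic proteins, at 0.744 in the upper block and 0.627 and 0.464 within its levels of 26 and 125 mice in the lower block. Cdkn1b, an inhibitor of the cell cycle, had 0.751 and 0.723 with Slc1a3. Bach1, a transcriptional repressor, had 0.594 and 0.652 within its levels of 109 and 32 mice in the upper block, and 0.681 in the lower block. Pinx1 and Vcp lay at the other end at -0.652 and -0.522 for Pinx1 and -0.585 and -0.588 for Vcp.

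Gja1 was closest to Topors, a ubiquitin and SUMO ligase, at 0.618 and 0.792, then to Rnf19a, a ubiquitin ligase, at 0.667 and 0.723, and Upf2, of nonsense-mediated decay, at 0.704 and 0.664. Hnrnpa2b1, an RNA-binding protein, had r 0.632 and 0.585 within its levels of 8 and 133 mice in the upper block, and 0.693 in the lower block. The semaphorin gene Sema6b, at -0.623 and -0.74, and Zdhhc12, at -0.617 and -0.697, lay opposite. Slc4a4 was closest to Adarb1, an RNA-editing enzyme, at 0.527 and 0.737, Cpeb1, which controls the poly(A) tails of messages, at 0.467 and 0.718, 6430548M08Rik at 0.481 and 0.703, and Cdkn1c at 0.51 and 0.647. Snw1, a splicing factor, ran against it at -0.416 and -0.682, and Stk38, a kinase, at -0.441 and -0.623. Aqp4 was closest to Oat, ornithine aminotransferase, at 0.741 in the upper block, and 0.642 and 0.54 within its levels of 45 and 106 mice in the lower block. No gene of the astrocyte list and no other member was among the 4 closest genes of Acsbg1, Slc1a3, Gja1 or Slc4a4. Ednrb, the gene closest to Slc1a3, is itself a receptor of astrocytes, but was not on that list.

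Measures of the arrays moved with some members and are given beside the relations. In the upper block the array median had r -0.236 with Aqp4, -0.22 with Gja1, -0.392 with Slc1a3, 0.267 with Slc4a4 and -0.242 with Acsbg1. In the lower block it had r -0.647 with Aqp4, -0.55 with Gja1, -0.337 with Slc1a3, 0.19 with Slc4a4 and 0.0598 with Acsbg1. With Aldh1l1 it had r 0.44 in the upper block, across its levels, and 0.362 in the lower block. With Slc1a2 it had -0.159 and 0.0128. The first component of the upper block, which held 10.5% of its variance, had r 0.862 with Aldh1l1 across its levels. In the lower block that of Aldh1l1 was -0.212. Relations of Aldh1l1 in the upper block may thus be shared with much of the table. After each array was centred on its median and scaled to equal spread, the r of Gja1 with Aqp4 was 0.502 in the upper and 0.613 in the lower block, that of Gja1 with Slc4a4 -0.355 and -0.393, and that of Slc1a3 with Slc4a4 0.267 and 0.532, and all 6 passed. Array medians lay only between -0.00726 and 0.0133, so centring could change these r little and does not settle what the medians run with. In the lower block the first component had r 0.706 with Gja1 and 0.499 with Aqp4. The r of this pair with that component as a covariate is not given here.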

How the data were processed

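Brain RNA of 292 mice was hybridised on 2-colour arrays, mouse in Cy3 and pool in Cy5 on every array, per the labels. The deposited table holds log ratios, taken here as log10 of mouse over pool. Base and direction are not stated. As the pool holds equal portions of every sample, a mean linear ratio should lie near 1, and for the Y-linked Eif2s3y it was 0.79 as read, 0.738 in base 2 and 21.6 with the sign turned. For Slc1a3 the mean linear ratio was 0.899 over all mice. It was 1.01 in the mice numbered 212 and under and 0.781 in those numbered 213 and up. Whether the pool stands for both blocks equally was not tested. For scanner software and normalization the entry is: not given in the sources used here. Over all probes 3.39% of array pairs correlated below -0.3, which mice set against their own average can do. Of 23574 probes, 25 with over 5% of values missing were left out, and 252 missing values were filled with the mean of the probe. Depth has no counterpart on arrays, and the number of mice limits precision.

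Means, differences and pair relations were fitted with limma 3.58.1 (R 4.3.3) over all probes with Benjamini-Hochberg adjustment at 0.05, after tests on simulated data. Differences of a relation were interaction terms on values standardised within each block, given as r at 213 and up minus r at 212 and under. Levels were sought with mclust 6.1.1 and called at a gain of 10 in the Bayesian criterion, 3 SD apart, with at least 5% of mice each. No r of a pair is given across levels of a gene, apart from counts over lists. Permutation p-values are two-sided. They give how often an r or rho at least as large in size arose when the pairing of the genes across mice was shuffled. Members and gene lists were chosen with earlier results of these data known. Genes named were drawn from the members, the 4 highest and 2 lowest named genes by mean r with each of the first 4, the 3 highest for the others, and of each list the 3 highest and 2 lowest; further names were chosen after their values were seen. The probe with the largest SD stands for a gene.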

Additional observations from a re-analysis of the deposited data

Results flagged for a closer look

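Between the number blocks 1 of 6 relations among Acsbg1, Slc1a3, Gja1 and Slc4a4, and 37 of 143 relations of these genes with named listed or neighbour genes, differed by the limma interaction term with an adjusted p under 0.05. Over all probes the share that differed ran from 17.3% with Acsbg1 to 29.1% with Gja1. The count of 37 is therefore not by itself a result about the named genes. The 37 include Clu and Ndrg2 with Gja1 and with Slc4a4, relations picked because the blocks had opposite calls. All values are r in the mice numbered 213 and up minus r in those numbered 212 and under. Whether mice or arrays underlie the difference of the blocks cannot be told apart.

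With Acsbg1, where 17.3% of all probes differed, the relation was lower in the mice numbered 213 and up by these differences: -0.433 for Gja1, -0.329 for Zbtb16 and -0.322 for Gjd2. It was higher by 0.392 for Slc1a4. With Slc1a3, where 26.9% of all probes differed, the relation was lower in the mice numbered 213 and up by these differences: -0.493 for Map3k6, -0.412 for Per1, -0.401 for Tsc22d3, -0.381 for Cdkn1a, -0.359 for Abcd2 and -0.343 for Plin4. It was higher by 0.542 for Slc4a3, 0.37 for Slc4a8, 0.354 for Car14 and 0.35 for Gjb1. With Gja1, where 29.1% of all probes differed, the relation was lower in the mice numbered 213 and up by these differences: -0.795 for Clu, -0.676 for Ndrg2, -0.596 for Slc1a1, -0.516 for Car4, -0.444 for Elovl2 and -0.382 for Grm3. It was higher by 0.431 for Cdkn1a, 0.389 for Per1, 0.378 for Fgfr3, 0.356 for Zbtb16 and 0.338 for Map3k6. With Slc4a4, where 18% of all probes differed, the relation was lower in the mice numbered 213 and up by these differences: -0.536 for Fkbp5, -0.506 for Cdkn1a, -0.465 for Map3k6, -0.423 for Tsc22d3, -0.379 for Plin4 and -0.333 for Pdk4. It was higher by 0.723 for Clu, 0.708 for Ndrg2, 0.369 for Gjb1, 0.367 for Elovl6, 0.364 for Panx1, 0.32 for Grm3 and 0.309 for Car4.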

How the results depend on the processing

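Of 242 values under alternative settings, 201 kept their direction and their side of the threshold or count, 18 fell short of it, 11 passed it, 9 changed sign and 3 counts moved. With no fold threshold the levels against the pool were called for Acsbg1 (-0.0215), Slc1a3 (-0.0565), Gja1 (0.00573) and Slc4a4 (-0.0478), and with at least 1.2-fold asked the block differences of Acsbg1 (-0.0445) and Gja1 (0.0139) were not. In mice numbered 213 and up, Acsbg1 with Gja1 missed the threshold with scaled arrays (r -0.178) and without the 30 arrays of widest spread (-0.168). Acsbg1 with Slc4a4 passed without those arrays (0.304), with the leading component as a covariate (0.202) and without the 4 mice high in Slc4a4 (0.27, an alternative chosen after seeing the data). Slc1a3 with Slc4a4 missed it on ranks (0.141), without the 2 farthest mice (0.151) and without those 4 mice (0.159). In mice numbered 212 and under, Acsbg1 with Slc1a3, near 0 throughout, was 0.0341 with scaled arrays, 0.00712 on ranks, 0.021 with the component and 0.00978 without 2 mice. Acsbg1 with Gja1 was 0.176 on ranks, 0.177 without 2 mice and -0.0802 with the component. With the component Acsbg1 with Slc4a4 was 0.0623, Slc1a3 with Gja1 passed at 0.203 and Gja1 with Slc4a4 missed the threshold at -0.143. Differences of r between the blocks without the wide arrays were 0.338 for Acsbg1 with Slc1a3, 0.441 for Acsbg1 with Slc4a4 and -0.291 for Slc1a3 with Slc4a4, all called, and 0.000881 for Slc1a3 with Gja1 and 0.171 for Gja1 with Slc4a4, which was 0.0387 with scaled arrays. The causes were not tested; 21 of the 30 wide arrays were of mice numbered 213 and up. No other probe could be tried because each member has 1. No paired analysis was possible because each mouse number occurs once.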

Other observations

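The companion genes had neighbours of their own. Aqp4 was followed by Vps26c, at r 0.729 in the mice numbered 213 and up and 0.568 and 0.521 within its levels of 41 and 110 mice in those numbered 212 and under, and by Pja2, a ubiquitin ligase, at r 0.677 in the mice numbered 213 and up and 0.728 in those numbered 212 and under. Slc1a2 was followed by Top2a, at 0.782 and 0.249, but without the 4 mice of the upper block and the 1 mouse of the lower block that lie beyond 0.5 in Slc1a2, a check chosen after seeing the data, r was 0.19 and 0.307. Pnliprp1 had r 0.664 and 0.363 with Slc1a2, and 0.475 and 0.553 without those mice. Tap1 had 0.398 and 0.628, and 0.357 and 0.487 without them. Aldh1l1 was closest to Slmap, at 0.804 in the lower block, where Kiss1r, the kisspeptin receptor gene, had 0.677 and 0.619 within its levels of 143 and 8 mice, and Prom2 had 0.625 and 0.781 within its levels of 133 and 18 mice. For the upper block, where Aldh1l1 itself falls into levels, no r with these genes is given.

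Of 5 measured carbonic anhydrase genes, 2 went with Acsbg1 in both blocks. Of all probes 18% went with Acsbg1 in the upper and 21.1% in the lower block. The 5 are part of the list of 11 bicarbonate genes, of which 6 (54.5%) and 4 (36.4%) went with Acsbg1. The transporter gene Slc4a8 of that list had r 0.407 and 0.365, so such relations were not confined to carbonic anhydrases. Car14, a membrane-bound carbonic anhydrase, had r 0.54 and 0.458 with Acsbg1 in the upper and the lower block, and Car4 had 0.336 and 0.459. Car11 had 0.373 and -0.144, and only the first passed, while Car10 (-0.0197 and 0.103) and Car3 (0.0569 and -0.0718) passed in neither. With Slc4a4 the r of Car4 was -0.172 and -0.481.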
